A study of Mus musculus with 112 samples.

Results

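A set of 10 genes of transforming growth factor beta (TGF-beta) and activin signalling was followed from skin through papilloma and carcinoma to metastasis in mice. They were the ligand genes Tgfb1, Tgfb2, Tgfb3 and Inhba, the receptor Tgfbr1, the signal carriers Smad3 and Smad4, the inhibitors Smad7 and Fst, and Tgfbi, named for its induction by TGF-beta. They were chosen by gene symbol and found through probe sets that name a single gene. Of the 10 genes, 9 were measured, each by 1 probe set, among 18772 genes in all. The probe set for Fst, which encodes the activin-binding protein follistatin, also carries the name of a second gene, so no value is given for Fst.

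TGF-beta and activin are secreted dimers that bring type I and type II receptor kinases together on the cell surface. The type I receptor then phosphorylates Smad2 and Smad3, which join Smad4 and act on genes in the nucleus, while Smad7 blocks the receptor. In skin the pathway restrains the division of keratinocytes, and in skin carcinomas it is also known for the change of squamous cells into spindle-shaped, mesenchymal ones.

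RNA came from 15 male mice of the FVBBX cross (Spretus and FVB hybrids mated to FVB), of which 6 carried the knockout labelled HrasKO and 9 were wild type (WT). Mice of both genotypes received the mutagen DMBA (25 mg as labelled) once at 8 weeks of age and then 200 µL of the tumour promoter TPA 2 times a week. Primary tumours were resected above 1 cm, and the mice carried metastases at sacrifice. The 112 arrays held 15 skins (6 HrasKO and 9 WT mice), 27 papillomas (4 HrasKO and 9 WT mice), 12 spindle carcinomas (4 HrasKO and 6 WT mice) and 10 squamous cell carcinomas (SCC, 8 WT mice). They also held 20 spindle metastases (4 HrasKO and 3 WT mice), 24 SCC metastases (3 HrasKO and 8 WT mice), 3 mixed carcinomas and 1 mixed metastasis. Skin and tumours alike came from mice given both agents, and no untreated mouse enters these comparisons. The genotype labels were not checked on the Hras gene, which was not analysed here. Levels are log2 intensities, on which a difference of 1 is a 2-fold change in signal. The mouse was the replicate, and arrays of 1 mouse and class were averaged first.

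Fewer cells of a type and less RNA per cell cannot be told apart in such tissue RNA. The mean of 8 keratinocyte markers was 10.73 ± 0.52 in skin (SD, n = 15 mice), 10.21 ± 1.46 in papillomas (n = 13), 7.06 ± 1.75 in spindle carcinomas (n = 10) and 10.84 ± 0.36 in SCC carcinomas (n = 8). It was 5.57 ± 0.55 in spindle metastases (n = 7) and 9.30 ± 1.98 in SCC metastases (n = 11). Over all genes, 12 arrays were closer to another kind of tissue than to the one on their label, with mixed tumours not assessed. They were 4 papillomas and 6 SCC metastases closest to spindle tumours, 1 papilloma closest to skin and 1 spindle carcinoma closest to squamous tumours. The papillomas of mouse 1815 had a keratinocyte marker mean of 5.66, and the spindle carcinoma of mouse 1949 had 11.12. Mouse 1815 was the highest of 13 papilloma mice for 8 of the 9 genes, and mouse 1949 the lowest of 10 spindle carcinoma mice for 6 of them. Their part in the results was not tested beyond the values given without these mice or arrays.

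Promoter sequences from RefSeq (GRCm38.p6) were at hand for 6 of the 10 genes. Those of Tgfb1 and Inhba, the ligand genes that rose in papillomas, are shown beside that of Tgfb2, which was not called there. Each line gives the 250 bases before the start of transcription, 5′ to 3′ on the gene's strand. Capitals mark every match on either strand to TATAAA (the TATA box), CAGACA (a Smad element), GGGCGG (a GC box) or TGANTCA (the site of AP-1, a factor that TPA activates).
Tgfb1, chr7:25686752-25687001, plus strand: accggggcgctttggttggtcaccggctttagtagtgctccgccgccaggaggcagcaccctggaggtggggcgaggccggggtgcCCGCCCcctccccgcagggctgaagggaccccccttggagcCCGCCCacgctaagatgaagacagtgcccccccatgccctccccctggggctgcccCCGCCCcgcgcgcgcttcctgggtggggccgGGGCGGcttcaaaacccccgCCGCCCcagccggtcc
Inhba, chr13:16011601-16011850, plus strand: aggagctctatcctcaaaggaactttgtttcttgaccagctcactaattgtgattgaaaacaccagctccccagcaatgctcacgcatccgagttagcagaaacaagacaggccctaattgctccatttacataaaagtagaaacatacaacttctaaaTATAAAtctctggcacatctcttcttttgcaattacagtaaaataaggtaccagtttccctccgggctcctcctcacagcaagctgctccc
Tgfb2, chr1:186705990-186706239, minus strand: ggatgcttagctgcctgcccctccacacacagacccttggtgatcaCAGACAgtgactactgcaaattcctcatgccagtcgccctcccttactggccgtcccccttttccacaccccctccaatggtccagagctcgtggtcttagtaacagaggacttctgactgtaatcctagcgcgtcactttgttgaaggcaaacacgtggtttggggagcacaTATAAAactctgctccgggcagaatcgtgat
The Tgfb1 window had 5 GC boxes, no TATAAA and a G and C content of 75.2%. The Inhba window had TATAAA 91 bases before the start, no GC box and a G and C content of 43.2%. The Tgfb2 window had TATAAA 31 bases and CAGACA 204 bases before the start, and a G and C content of 53.6%. TGANTCA was in none of the windows of the 6 genes. Among 32851 promoter windows of the same length, 6.75% held TGANTCA, 12.4% TATAAA, 17.1% CAGACA and 32.7% GGGCGG, and the median G and C content was 52.4%. No matches overlapped in the 3 windows shown.

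Among the ligands, Tgfb1 (probe set 10551185), which encodes TGF-beta 1, ran from 8.60 through a median of 9.33 to 9.82 in skin and from 9.55 through a median of 9.93 to 10.77 in papillomas. It ran from 10.18 through a median of 10.51 to 10.996 in spindle carcinomas and from 10.05 through a median of 10.29 to 11.13 in SCC carcinomas. Metastases ran from 10.19 through a median of 10.80 to 11.03 in the spindle form and from 10.32 through a median of 10.82 to 11.24 in SCC. In the order of the means, skin and papilloma were apart by more than either SD, as were papilloma and SCC carcinoma, and the carcinoma and metastasis classes were not. Inhba (probe set 10403743), which encodes the subunit of activin A, ran from 6.80 through a median of 7.64 to 8.45 in skin and from 7.54 through a median of 8.84 to 9.60 in papillomas. It ran from 7.91 through a median of 9.71 to 11.54 in spindle carcinomas and from 8.45 through a median of 9.12 to 9.85 in SCC carcinomas. For Inhba only skin and papilloma were neighbours apart by more than either SD. Its spindle carcinomas were the most spread of its 6 classes, with an SD of 1.31, and 3 of the 10 lay below the lowest SCC carcinoma.

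Tgfb3 (probe set 10401673), which encodes TGF-beta 3, averaged 8.82 ± 0.37 in skin, 9.01 ± 0.46 in papillomas, 10.23 ± 0.57 in spindle carcinomas and 9.20 ± 1.04 in SCC carcinomas. In metastases it averaged 10.10 ± 1.04 (spindle) and 10.02 ± 0.82 (SCC). Its SCC carcinomas were split, with 7.59 in mouse 1508 and 7.61 in mouse 1984 and at least 9.32 in the other 6 mice. Fibroblast marker means were 8.75 and 7.51 in the SCC carcinomas of mice 1508 and 1984, against 9.95 to 11.13 in the other 6. Macrophage marker means were 8.29 and 8.54, against 9.19 to 10.29, and the part of these cells was not tested. Tgfb2 (probe set 10360920), which encodes TGF-beta 2, had class means from 7.14 ± 0.44 in SCC carcinomas to 7.75 ± 0.44 in papillomas. Neighbours in that order differed by less than either SD. Within papillomas, Inhba was also uneven inside a mouse: the 11 mice with several papillomas had a median range of 0.64, and mouse 1706 had a range of 2.36.

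The type I receptor Tgfbr1 (probe set 10504817) averaged 8.87 ± 0.33 in skin, 8.88 ± 0.32 in papillomas, 9.37 ± 0.32 in spindle carcinomas and 9.25 ± 0.33 in SCC carcinomas. It averaged 9.33 ± 0.22 in spindle and 9.57 ± 0.36 in SCC metastases. In this order of means only papilloma and SCC carcinoma were neighbours apart by more than either SD. Tgfbi (probe set 10405587), which encodes a secreted matrix protein, had class means from 11.60 ± 0.57 in SCC carcinomas to 12.03 ± 0.35 in spindle carcinomas, with no neighbours apart by an SD.

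Smad3 (probe set 10594404) ran from 7.70 through a median of 8.42 to 9.29 in skin and from 8.20 through a median of 8.68 to 10.32 in papillomas. It ran from 9.21 through a median of 9.89 to 10.23 in spindle carcinomas and from 8.65 through a median of 8.96 to 9.36 in SCC carcinomas. Metastases ran from 9.18 through a median of 9.90 to 10.41 in the spindle form and from 9.22 through a median of 9.85 to 10.57 in SCC. The classes fell into a low set (skin, papilloma, SCC carcinoma) and a high set (both metastasis classes and spindle carcinoma), and the step between SCC carcinoma and SCC metastasis was larger than either SD. The highest papilloma value was that of mouse 1815, and the next was 8.90 in mouse 1508.

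Smad4 (probe set 10459705), the partner that Smad3 joins, averaged 10.14 ± 0.24 in skin, 9.83 ± 0.24 in papillomas, 10.41 ± 0.12 in spindle carcinomas and 9.97 ± 0.10 in SCC carcinomas. It averaged 10.28 ± 0.13 in spindle and 10.23 ± 0.23 in SCC metastases. Papillomas had the lowest mean of the 6 classes and spindle carcinomas the highest, and spindle metastases and spindle carcinomas were the only neighbours apart by more than either SD. Smad7 (probe set 10456745) averaged 7.52 ± 0.78 in skin, 7.99 ± 0.42 in papillomas, 8.37 ± 0.47 in spindle carcinomas and 8.12 ± 0.40 in SCC carcinomas. It averaged 8.59 ± 0.50 in spindle and 8.66 ± 0.37 in SCC metastases, and no neighbours in the order of its means were apart by more than either SD.

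**Figure D1:**
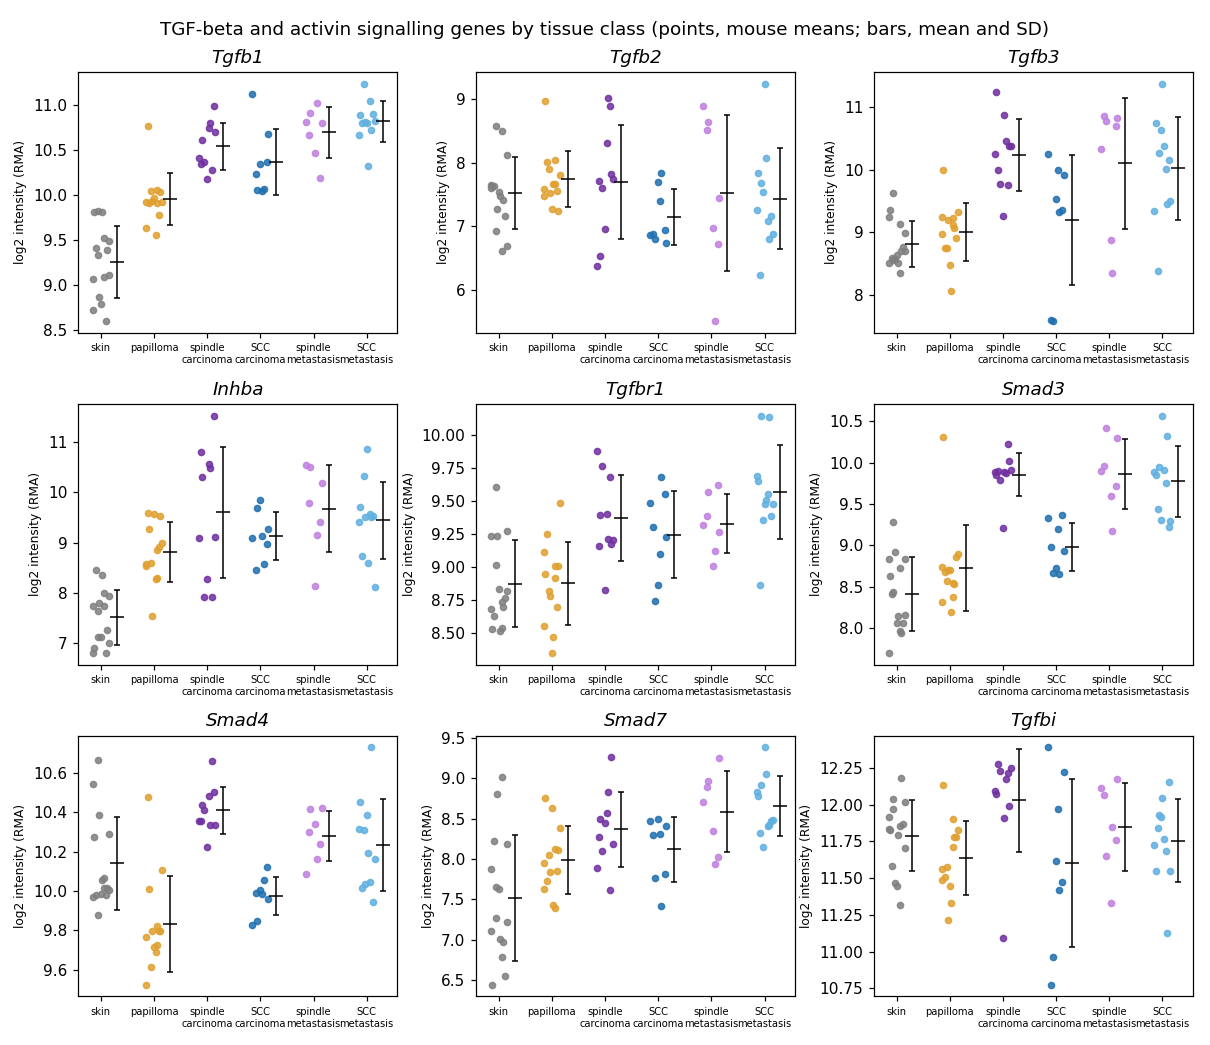
Log2 intensity (vertical axis) of the 9 measured genes in 6 tissue classes (horizontal axis), with 1 point per mouse and the mean and SD of mice. Smad3 lies between 9.21 and 10.23 in spindle carcinomas and between 8.65 and 9.36 in SCC carcinomas.

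The step into a benign tumour was followed in 13 mice that gave both skin and papillomas. Inhba and Tgfb1 rose and Smad4 fell. Of all genes, 24.5% were called higher and 18.1% lower at a Benjamini-Hochberg adjusted p under 0.05, so 2 of 9 higher and 1 of 9 lower is a share near the background. Inhba had 7.54 to 9.60 (median 8.84) in papillomas, against 6.80 to 8.35 (median 7.64) in skin, and the groups overlapped. It rose by 1.36 ± 0.25 (log2, SE), or 2.56-fold, with limma adjusted p = 0.00061. The rise was seen in 11 of 13 mice and reached 2.77 in mouse 1717. Mice 1509 and 1984 went the other way, by -0.065 and -0.44.

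Tgfb1 had 9.55 to 10.77 (median 9.93) in papillomas, against 8.60 to 9.82 (median 9.11) in skin. It rose by 0.73 ± 0.15 (1.66-fold, limma adjusted p = 0.0013) in 12 of 13 mice, the exception being mouse 1509 with -0.26. Smad4 had 9.53 to 10.48 (median 9.80) in papillomas, against 9.88 to 10.66 (median 10.06) in skin. It fell by 0.33 ± 0.088 (limma adjusted p = 0.00765) in 11 of 13 mice. The exceptions were mouse 1815 with 0.09 and mouse 1664 with 0.023.

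The other 6 genes were not called between papilloma and skin. Smad7 (0.46 ± 0.20, limma adjusted p = 0.0866) was called without mouse 1984 (0.59, adjusted p = 0.0144). Tgfbi (-0.16 ± 0.10, limma adjusted p = 0.191) was called lower without mouse 1815 (-0.23, adjusted p = 0.0236). Smad3 (0.29 ± 0.14), Tgfb2 (0.21 ± 0.20), Tgfb3 (0.17 ± 0.15) and Tgfbr1 (-0.024 ± 0.10) had limma adjusted p-values from 0.117 to 0.865. All these differences are papilloma minus skin.

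Of 61 other measured genes of the pathway, 9 rose and 16 fell between skin and papilloma, with a median of -0.11 against 0.045 over all genes. Receptors accounted for 4 of the falls among 8 measured. Tgfbr3, a co-receptor that presents TGF-beta, fell by 2.09 ± 0.31 (limma adjusted p = 0.000118). Of 10 latency and activation genes, 2 rose and 4 fell. Dcn, which encodes the TGF-beta-binding proteoglycan decorin, fell by 1.44 ± 0.21, and Itgav, an integrin subunit that helps to release latent TGF-beta, rose by 0.57 ± 0.11. Of 16 Smads and regulators, 4 rose and 5 fell. Smurf1, a ubiquitin ligase that acts on Smads and the receptor, rose by 0.70 ± 0.091, and Pmepa1, an inhibitor of Smad signalling, rose by 0.53 ± 0.17. Of 18 targets, 2 rose and 2 fell. Tnc, which encodes tenascin C, rose by 1.78 ± 0.42, and Id1, a helix-loop-helix inhibitor, rose by 0.85 ± 0.22. These 7 calls held without any 1 mouse.

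Other calls between papilloma and skin were lost when some single mice were left out. Among ligands, Gdf11, a relative of activin, rose by 0.45 ± 0.17 (kept only without mouse 1456, 1509, 1664, 1706 or 2022), and Mstn, the muscle growth inhibitor myostatin, fell by 1.46 ± 0.49 (lost without mouse 1383, 1664 or 1706). Acvr1c, an activin-type receptor, fell by 0.93 ± 0.31 (lost without mouse 1407, 1508, 1509 or 1706). Ltbp2, of the latent TGF-beta binding protein family, rose by 0.60 ± 0.23 (kept only without mouse 1509, 1717 or 2104), and Itgb8, an integrin subunit that activates TGF-beta, fell by 0.77 ± 0.27 (lost without mouse 1456, 1509, 1664, 1717, 1949, 1984 or 2104). Smad6, an inhibitory Smad, fell by 0.53 ± 0.19 (lost without mouse 1383, 1456, 1508, 1664, 1984 or 2104), and Smad9, a Smad of the related BMP branch, fell by 0.33 ± 0.12 (lost without mouse 1383, 1664, 1706, 1717 or 2022). Nox4, an NADPH oxidase, fell by 0.73 ± 0.25 (lost without mouse 1383, 1508, 1509, 1706 or 2022), and Id2 by 0.37 ± 0.13 (lost without mouse 1383, 1456, 1509 or 2022). In the same comparison 7 of 7 hair follicle, 5 of 5 skeletal muscle and 4 of 5 adipocyte markers fell. So did 3 of 6 endothelial, 2 of 8 fibroblast, 2 of 8 keratinocyte, 2 of 5 T cell and 1 of 4 lung markers, while 1 of 6 macrophage and 1 of 3 platelet markers rose. Dcn is itself on the fibroblast list. The part of these cells in the differences was not tested.

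The step from papilloma to SCC carcinoma was compared in 8 WT mice with both. No gene of the 9 was called. Of all genes, 0.0107% were called higher and 0.192% lower, which is 2 and 36 genes, against 12 and 53 after repeated quantile normalization. At an unadjusted limma p under 0.05 there were 5 of the 9 genes and 1768 of all genes. Tgfb1 had 10.05 to 11.13 (median 10.29) in SCC carcinomas, against 9.64 to 10.05 (median 9.93) in papillomas. The mouse means met at 10.05, and the lowest single SCC carcinoma array was 9.71, within the papilloma range. Tgfb1 was higher in SCC carcinoma in 8 of 8 mice, by 0.48 ± 0.15, with limma adjusted p = 0.31. Tgfb2 was lower in 7 of 8 mice (-0.45 ± 0.13, adjusted p = 0.222 with limma). Smad3 (0.38 ± 0.13) and Smad4 (0.22 ± 0.087) were higher in 7 of 8 mice and Inhba (0.44 ± 0.15) in 6 of 8, all uncalled. Tgfb3 differences ran from -1.73 in mouse 1508 to 1.44 in mouse 1717. None of the 61 other pathway genes was called, and 9 had an unadjusted limma p under 0.05. The largest difference of each list was -0.29 ± 0.17 for Mstn, 0.58 ± 0.39 for Tgfbr3, -1.29 ± 0.37 for Itgb8, -0.83 ± 0.23 for Bambi, a decoy receptor, and 0.79 ± 0.26 for Tnc.

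The step from papilloma to spindle carcinoma was compared in 9 mice, with papillomas that in part serve in the previous comparisons too. Smad3, Tgfb3, Tgfb1, Smad4 and Tgfbr1 rose, and none of the 9 genes fell. Of all genes, 12.6% were called higher and 11.2% lower, and the median difference was 0.51 over the 9 genes against 0.027 over all. Smad3 had 9.21 to 10.23 (median 9.89) in spindle carcinomas, against 8.20 to 10.32 (median 8.68) in papillomas. It rose by 1.08 ± 0.19 (2.11-fold, limma adjusted p = 0.00833) in 8 of 9 mice. The exception was mouse 1815, with 10.02 in the spindle carcinoma, against 10.32 in its papillomas. In the other 8 mice the rise was 0.68 (mouse 1949) to 1.71 (mouse 1509).

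Tgfb3 had 9.26 to 11.23 (median 10.24) in spindle carcinomas, against 8.06 to 9.99 (median 9.19) in papillomas. It rose in 9 of 9 mice by 1.06 ± 0.23 (limma adjusted p = 0.0132), least in mouse 1949 (0.18) and most in mouse 1509 (2.31). Tgfb1 had 10.18 to 10.996 (median 10.41) in spindle carcinomas, against 9.55 to 10.77 (median 9.93) in papillomas. It rose in 9 of 9 mice by 0.58 ± 0.10 (limma adjusted p = 0.00803). Smad4 had 10.22 to 10.66 (median 10.36) in spindle carcinomas, against 9.53 to 10.48 (median 9.80) in papillomas. It rose in 9 of 9 mice by 0.51 ± 0.091 (limma adjusted p = 0.00847). Both groups overlapped for each of these genes. Tgfbr1 rose in 9 of 9 mice by 0.45 ± 0.12 (limma adjusted p = 0.0268). The Tgfbr1 call was lost without mouse 1407, 1509 or 2022, with adjusted p = 0.05 (rounded), 0.0682 and 0.0568.

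Inhba was higher in 6 of 9 spindle carcinomas but was not called (0.83 ± 0.44, limma adjusted p = 0.204). Mouse 1984 had 10.81 in the spindle carcinoma, against 7.54 in papillomas, and mouse 1508 had 7.91, against 9.00. Tgfbi (0.40 ± 0.16, limma adjusted p = 0.0999) was called without mouse 1949 (0.54, adjusted p = 0.0118). Smad7 (0.46 ± 0.17, limma adjusted p = 0.0741) was called without mouse 1508 (0.55) or mouse 2022 (0.56). Without the arrays that stood apart, 7 of the 9 genes were called. Without the carcinomas titled RegCA, 7 of the 12 spindle carcinomas, none was and no gene of the array was. Smad3 was then 1.16 higher (limma adjusted p = 0.0912) and Tgfb3 1.25 higher (adjusted p = 0.0822). Only mice 1383, 1407, 1509, 1664 and 1815 remained in that fit. The smaller number of mice and the absence of RegCA tumours cannot be told apart there.

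Of the 61 other pathway genes, 21 rose and 6 fell between papilloma and spindle carcinoma, with a median of 0.12. Of 10 latency and activation genes, 5 rose and 1 fell. Ltbp3 and Ltbp2, of the latent TGF-beta binding protein family, rose by 1.37 ± 0.17 and 1.28 ± 0.24 (limma adjusted p = 0.00565 and 0.00903). Itgb6, an epithelial integrin subunit that activates latent TGF-beta, fell by 1.99 ± 0.37 (limma adjusted p = 0.00903). Of 16 Smads and regulators, 8 rose and 2 fell. Tgif1, a co-repressor that binds Smads, rose by 0.61 ± 0.11, and Zfyve9, an anchor protein that brings Smads to the receptor, fell by 0.68 ± 0.081. Of 18 targets, 6 rose and 2 fell. Snai1, a repressor of epithelial genes, rose by 1.75 ± 0.35, and Cdkn1a, the cell cycle inhibitor p21, fell by 0.57 ± 0.12. Of 8 receptors, Acvr1 rose by 0.77 ± 0.18 and Acvr1b, the activin type I receptor, fell by 0.56 ± 0.17. Gdf11 rose by 0.93 ± 0.21. All of these calls were lost without RegCA carcinomas, a fit with fewer mice. That of Acvr1b was also lost without any 1 mouse except 1949, while the other 9 held without any 1 mouse. The calls of Fstl1, a follistatin-like protein (0.69 ± 0.22), Bambi (-1.06 ± 0.34), Tgm2, a transglutaminase (1.49 ± 0.46), and Id1 (-0.95 ± 0.26) were less stable. Those of Fstl1 and Bambi were kept only without mouse 1815 or 1949, that of Tgm2 only without mouse 1815, and that of Id1 only without mouse 1508, 1815 or 1949. Alongside, 8 of 8 keratinocyte and 4 of 4 differentiated epidermis markers fell, as did 2 of 5 T cell and 1 of 5 adipocyte markers. Of macrophage markers 4 of 6 rose and of fibroblast markers 1 of 8, and their part in the differences was not tested.

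**Figure D2:**
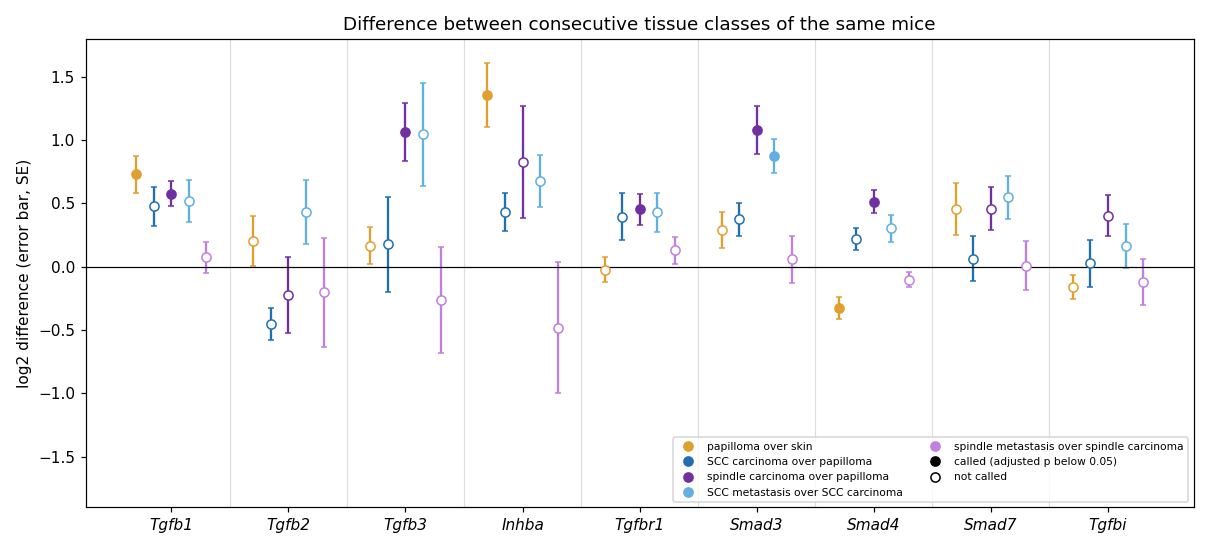
Log2 difference between classes (vertical axis, error bars SE) for the 9 genes (horizontal axis) by comparison, with filled points called at an adjusted p under 0.05. Inhba and Tgfb1 are called higher and Smad4 lower in papilloma than in skin. Also called higher are 5 genes in spindle carcinoma over papilloma, and Smad3 alone in SCC metastasis over SCC carcinoma.

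The carcinoma forms were compared in WT mice, 6 with spindle and 8 with SCC carcinoma, 5 of them with both. Smad3 and Smad4 were called higher in the spindle form. Of all genes, 3.47% were called higher and 4.09% lower. The median difference was 0.34 over the 9 genes, all of them positive, against 0.019 over all genes. Smad4 had 10.22 to 10.66 (median 10.38) in spindle carcinomas, against 9.83 to 10.12 (median 9.99) in SCC carcinomas, without overlap. It was 0.44 ± 0.089 higher (limma adjusted p = 0.0165). Smad3 had 9.21 to 10.23 (median 9.87) in spindle carcinomas, against 8.65 to 9.36 (median 8.96) in SCC carcinomas, and was 0.86 ± 0.17 higher (limma adjusted p = 0.0165). Mouse 1949, at 9.21, was the 1 spindle carcinoma mouse within the SCC range.

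Both calls depended on single mice. Without mouse 1508 the Smad3 and Smad4 differences were 0.83 and 0.43 (limma adjusted p = 0.0854 for both). Without mouse 1984 they were 0.86 and 0.46 (limma adjusted p = 0.0843 for both). Over the 5 mice with both forms, with mouse as a fixed block, they were 0.69 and 0.45 (limma adjusted p = 0.468 for both). Tgfb3 (0.89 ± 0.46, limma adjusted p = 0.264) was called when HrasKO mice were added (1.03, adjusted p = 0.0492). Tgfb1 (0.069 ± 0.19), Tgfbr1 (0.17 ± 0.20), Smad7 (0.16 ± 0.25) and Inhba (0.15 ± 0.55) had differences smaller than their SE.

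Of the 61 other pathway genes, 6 were higher and 3 lower in spindle than in SCC carcinomas. Ltbp1 and Ltbp4, latent TGF-beta binding proteins, were 1.58 ± 0.42 and 1.55 ± 0.35 higher, and Snai1 was 1.49 ± 0.34 higher. Ccn2, the matricellular protein also known as connective tissue growth factor, was 1.32 ± 0.37 higher. Itgb6 had a difference of -2.31 ± 0.42 (limma adjusted p = 0.0156). Smad5, a Smad of the BMP branch, was 0.54 ± 0.14 higher, and Id1 and Cdkn1a had differences of -1.32 ± 0.37 and -0.61 ± 0.16. These 8 calls were all lost without mouse 1508, without mouse 1984 and with mouse as a fixed block. That of Itgb6 held without any 1 other mouse. Ltbp4 was also lost without mouse 1383 and Snai1 without mouse 1383 or 2022. Ltbp1 was kept only without mouse 1717 or 1949, and Smad5, Ccn2, Id1 and Cdkn1a only without mouse 1949. No ligand or receptor was called, and the largest differences were 0.62 ± 0.25 for Gdf11 and 1.34 ± 0.56 for Tgfbr3. Of the markers, 7 of 8 for keratinocytes, 1 of 4 for differentiated epidermis and 1 of 5 for adipocytes were lower and 1 of 6 for macrophages was higher in spindle carcinomas, and their part was not tested.

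SCC metastases were set against the SCC carcinoma in 8 WT mice, whose carcinomas also enter the 2 earlier comparisons with papilloma and spindle carcinoma. Smad3 was higher in all 8 and was the 1 gene of the 9 called. Of all genes, 1.81% were called higher and 2.74% lower. Smad3 had 9.22 to 10.57 (median 9.87) in SCC metastases, against 8.65 to 9.36 (median 8.96) in SCC carcinomas, with some overlap. It rose by 0.88 ± 0.13 (1.84-fold, limma adjusted p = 0.0117). The rise was 0.29 in mouse 1717, 0.56 in 1383, 0.58 in 2104, 0.87 in 1984, 0.96 in 2022, 1.10 in 1456, 1.28 in 1508 and 1.38 in 1949. The call held without any 1 of the 8 mice. With lymph node metastases alone the difference was 0.76 and not called (limma adjusted p = 0.0992). That fit lost mice 1949 and 1984, whose SCC metastases were from lung only. The smaller number of mice and the site cannot be told apart there.

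The other 8 genes were also higher in SCC metastases, uncalled. The median over the 9 was 0.52 against 0.011 over all genes, and 7 of the 9 had an unadjusted limma p under 0.05, as had 4089 of all genes. Inhba (0.68 ± 0.21), Tgfb1 (0.52 ± 0.17), Smad7 (0.55 ± 0.17), Tgfbr1 (0.43 ± 0.15) and Tgfb3 (1.05 ± 0.41) were higher in 7 of 8 mice each. Their limma adjusted p-values were 0.0908 to 0.17. Tgfb1 was called without mouse 1383 (0.66, limma adjusted p = 0.0426). Without mouse 2104, Inhba (0.82, adjusted p = 0.0456) and Smad7 (0.68, adjusted p = 0.0426) were called with limma. The Tgfb3 difference was largest in the mice with the lowest SCC carcinoma values, at 3.13 in mouse 1984 and 2.67 in mouse 1508. Their SCC carcinomas also had the lowest fibroblast and macrophage marker means, whose part was not tested.

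Of the 61 other pathway genes, 4 rose and none fell from SCC carcinoma to metastasis. Ccn2 rose by 1.46 ± 0.18 (limma adjusted p = 0.00695), Ltbp3 by 1.29 ± 0.21 (adjusted p = 0.0135) and Ltbp4 by 1.07 ± 0.19 (adjusted p = 0.0197). The Ltbp4 call was lost without mouse 1456 or 1984, and all 3 were lost with lymph node metastases alone, a fit with fewer mice. The largest differences in lists without a call were -0.36 ± 0.37 for Inha, 0.58 ± 0.19 for Acvr1 and 0.96 ± 0.34 for Pmepa1. Beside them 3 of 4 B cell markers, 1 of 5 T cell markers and 1 of 6 macrophage markers rose, and 3 of 4 differentiated epidermis and 1 of 5 adipocyte markers fell. In the 8 mice the B cell marker mean ran from 6.55 to 9.98 in SCC metastases, against 4.63 to 5.25 in SCC carcinomas, and its part was not tested.

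Spindle metastases were compared with the spindle carcinoma of the same 7 mice, 4 HrasKO and 3 WT. None of the 9 genes was called, nor any gene of the array (0% higher, 0% lower). At an unadjusted limma p under 0.05 there were 2495 genes and 0 of the 9. Smad3 had 9.18 to 10.41 (median 9.90) in spindle metastases, against 9.21 to 10.02 (median 9.89) in spindle carcinomas, a difference of 0.059 ± 0.18. Smad4 was lower in 6 of 7 mice (-0.10 ± 0.061, limma adjusted p = 0.494). Inhba differences ran from -3.41 in mouse 1815, with 8.13 in metastases against 11.54 in the carcinoma, to 1.52 in mouse 1949. In the 4 HrasKO mice they lay between -0.12 and 0.048. The spindle carcinoma of mouse 1949 was closest to squamous tumours over all genes. Of the 61 other pathway genes 0 were called and 5 had an unadjusted limma p under 0.05. The largest differences were -0.67 ± 0.40 for Lefty1, 0.54 ± 0.23 for Acvrl1, -0.74 ± 0.46 for Ltbp1, -0.44 ± 0.29 for Pmepa1 and -0.98 ± 0.30 for Tnc. No marker was called either. The median difference was 2.94 for B cell and 1.65 for T cell markers, against 2.88 and 1.11 from SCC carcinoma to SCC metastasis. It was -1.21 for keratinocyte markers, against -0.92 in SCC, and the part of these cells was not tested.

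The change to metastasis was compared between the forms on the same differences, in 7 spindle and 8 SCC mice, of which 2 entered both groups. All 8 SCC mice were WT and 4 of the 7 spindle mice were HrasKO, and no genotype term was held, so form and genotype are partly confounded. The change was lower in spindle than in SCC mice for all 9 genes, but none was called and neither was any other gene (0%). At an unadjusted limma p under 0.05 there were 4 of the 9 genes and 1706 of all genes. The Smad3 change was -0.74 to 0.75 (median 0.028) in spindle mice, against 0.29 to 1.38 (median 0.92) in SCC mice, a difference of -0.82 ± 0.22 (limma adjusted p = 0.258). The Smad4 change was -0.25 to 0.078 (median -0.12) in spindle mice, against -0.017 to 0.61 (median 0.43) in SCC mice, a difference of -0.41 ± 0.12 (limma adjusted p = 0.286). A difference between the forms is therefore not shown for either gene. Mouse 1949 gave the highest Smad3 change in both groups and the 1 positive Smad4 change among spindle mice. Over all genes, its spindle carcinoma was closest to squamous tumours and its SCC metastasis closest to spindle tumours.

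**Figure D3:**
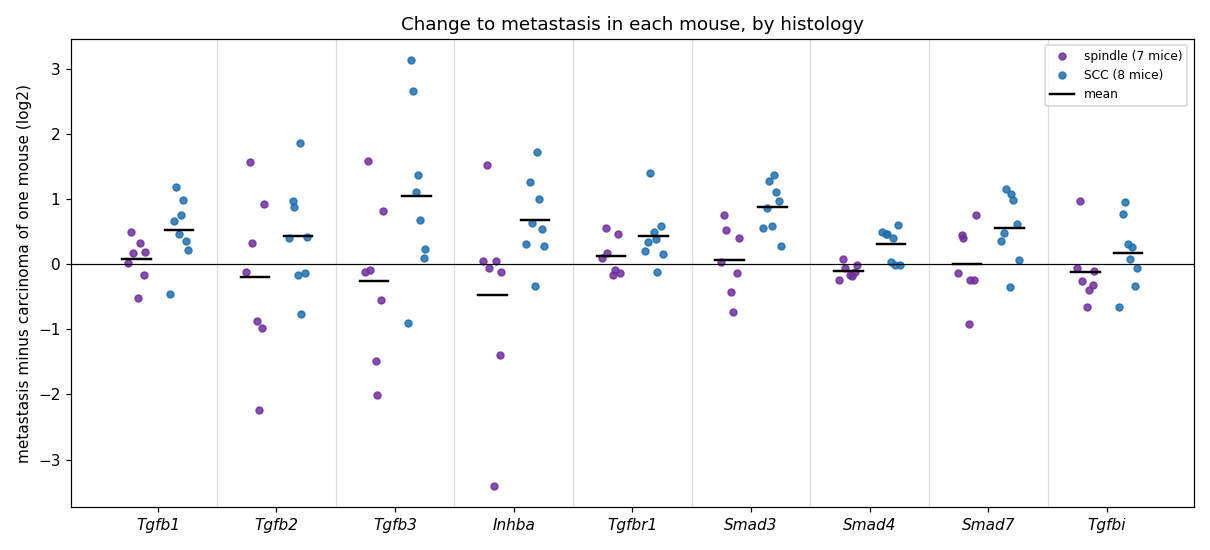
Metastasis minus carcinoma of the same mouse (log2, vertical axis) for the 9 genes (horizontal axis), with 7 spindle mice left of 8 SCC mice in each. The 8 SCC mice lie between 0.29 and 1.38 for Smad3, and the spindle mice lie on either side of 0.

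Between the metastases of 7 spindle and 11 SCC mice none of the 9 genes was called, and 0.0426% of all genes were higher and 0.0266% lower. At an unadjusted limma p under 0.05 there were 0 of the 9 genes and 3378 of all genes. Smad3 differed by 0.085 ± 0.20, Smad4 by 0.062 ± 0.10 and Inhba by 0.28 ± 0.38. In the SCC group mice 1949, 1664, 1706 and 1616 had keratinocyte marker means of 5.77, 6.52, 7.11 and 8.30, below the other 7 mice. Of the 61 other pathway genes 0 were called and 11 had an unadjusted limma p under 0.05. Itgb6 had a difference of -2.07 ± 0.47 (limma adjusted p = 0.0598), Inhbb, another activin subunit, -0.83 ± 0.26, Tgfbr3 0.83 ± 0.38, Smad6 -0.84 ± 0.33 and Tagln, an actin-binding protein of smooth muscle, -0.97 ± 0.32.

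Lung and lymph node metastases were compared in 8 mice with both, with the form as a covariate. None of the 9 genes and 0% of all genes were called, with 0 of the 9 and 1155 of all genes at an unadjusted limma p under 0.05. Over all 8 mice Inhba had 6.71 to 10.86 (median 9.45) in lung, against 9.17 to 10.65 (median 9.87) in lymph node. With mouse and form held, its difference was -0.81 ± 0.53. Among 3 liver metastases Inhba ran from 6.13 to 10.44, and among 3 thymus metastases from 9.54 to 9.73. The share of host tissue in these values was not tested.

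Smad3 and Smad4 varied together. With class means removed, their correlation over 64 mouse means was 0.772, the highest of the 36 pairs of the 9 genes. The points share mice and arrays, so this is a description. The class means are those of the labels. For both genes the papillomas of mouse 1815 were the highest of their class, with Smad3 at 10.32 and Smad4 at 10.48. The spindle carcinoma of mouse 1949 was the lowest of its class, at 9.21 and 10.22. No correlation given here was computed without the arrays that stood apart. Tgfb3 and Tgfbi reached 0.585, Tgfbr1 and Smad4 0.582, and Tgfb2 and Tgfb3 0.556. Computed the same way against 5 marker means, Tgfbi had 0.580 with fibroblast and 0.577 with macrophage markers, Tgfb3 0.571 and 0.417, and Tgfb1 0.154 and 0.556. Smad3 had 0.112 with fibroblast, 0.336 with macrophage, -0.411 with keratinocyte and -0.459 with differentiated epidermis markers. Inhba had -0.425 and Smad7 -0.369 with endothelial markers. These values tie no gene to 1 cell type. With classes kept, the 3 most correlated genes were Inppl1 (0.939), Dok1 (0.917) and Cers2 (0.911) for Smad3, Vezf1 (0.873), Zfp36l2 (0.841) and Arfgap3 (0.826) for Smad4 and Slc25a37 (0.819), Krt18 (0.782) and Csnk1g3 (0.779) for Smad7. They were Tmem214 (0.897), Lasp1 (0.896) and Galns (0.896) for Tgfb1, Glrb (0.692), Sh3rf3 (0.613) and Megf10 (0.609) for Tgfb2 and Itgb5 (0.862), Glis2 (0.853) and Spred2 (0.843) for Tgfb3. They were Pafah1b3 (0.804), Capg (0.804) and Itgb1 (0.800) for Inhba, Gnaq (0.790), Rnf166 (0.777) and Kansl3 (0.766) for Tgfbr1 and Vim (0.750), Zcchc24 (0.749) and Ano6 (0.741) for Tgfbi. With class means removed, the intraclass correlation of tissues of 1 mouse was highest for Tgfbr1 (0.319) and Smad4 (0.273), and lowest for Tgfb3 (-0.043). The median over all genes was 0.074. Most of the variance thus lay within mice, and mouse was not separated from genotype or batch here.

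**Figure D4:**
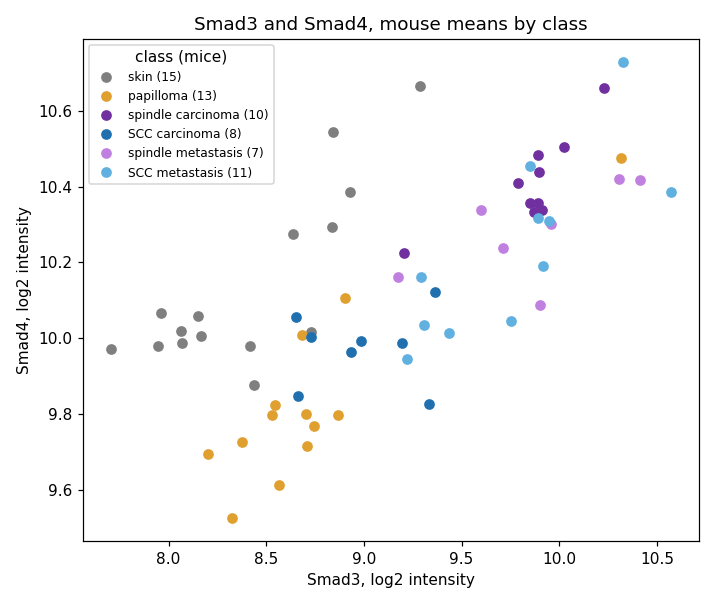
Smad3 (horizontal axis) against Smad4 (vertical axis), both log2 intensity, with 1 point per mouse and class. Most spindle carcinomas lie at upper right, SCC carcinomas lie lower on both axes, and the papilloma point at 10.32 for Smad3 is mouse 1815.

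Genotype was compared within each of the 5 classes that held both genotypes, and none of the 9 genes was called. Of all genes, 0.00533% were called in skin, 0.00533% in papillomas, 0% in spindle carcinomas, 0% in spindle metastases and 0.154% in SCC metastases. At an unadjusted limma p under 0.05 there were 2062 genes in skin, 959 in papillomas, 626 in spindle carcinomas, 394 in spindle metastases and 2369 in SCC metastases. Of the 9 genes there were 1 in skin (Tgfbr1), 0 in papillomas, 0 in spindle carcinomas, 1 in spindle metastases (Tgfb1) and 1 in SCC metastases (Inhba).

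Inhba in SCC metastases was 8.12 in mouse 1616, 8.59 in 1664 and 8.74 in 1706 (HrasKO), against 9.40 to 10.86 (median 9.56) in 8 WT mice, without overlap. The difference was -1.31 ± 0.32 (limma adjusted p = 0.155), and it was called without mouse 1949 (-1.18, adjusted p = 0.0383). All 3 HrasKO mice and mouse 1949 had SCC metastasis arrays closest to spindle tumours. Sites of the SCC metastases also differed: mouse 1664 had only a lung metastasis, mouse 1616 a lung and a lymph node metastasis, and mouse 1706 lymph node metastases. The SCC metastases of WT mice 1949 and 1984 were also from lung only. Site was not held in this fit, and its part in the Inhba difference was not tested. In spindle carcinomas the Inhba difference was 0.80 ± 0.87 and in spindle metastases 0.96 ± 0.58, both uncalled. Tgfb1 in spindle metastases had 10.80 to 11.03 (median 10.87) in 4 HrasKO mice, against 10.19 to 10.68 (median 10.47) in 3 WT mice, without overlap, a difference of 0.48 ± 0.16 (limma adjusted p = 0.999). Tgfbr1 in skin had 8.51 to 8.83 (median 8.58) in 6 HrasKO mice, against 8.68 to 9.61 (median 9.02) in 9 WT mice, a difference of -0.40 ± 0.14 (limma adjusted p = 0.313). These fits hold batch as a term. In the spindle classes only mouse 1664 came from the second batch, so it adds nothing to the genotype difference there.

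**Figure D5:**
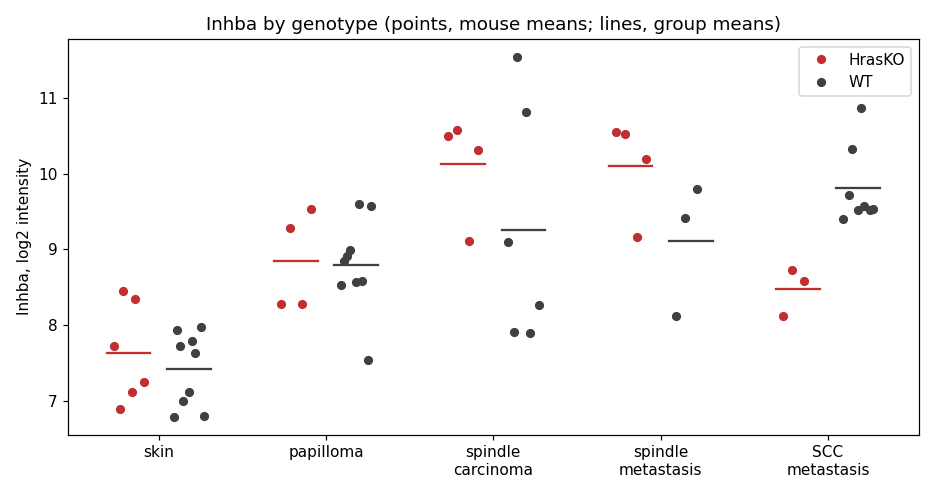
Inhba log2 intensity (vertical axis) in HrasKO mice, left, and WT mice, right, for 5 tissue classes (horizontal axis), with 1 point per mouse and a line for each group mean. In SCC metastases the 3 HrasKO mice lie between 8.12 and 8.74, below all 8 WT mice, and metastasis sites differ between mice.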

How the data were processed

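Affymetrix arrays measured RNA of 112 samples from 15 mice. The deposited log2 values were made by the authors with RMA, per the submitters' processing notes, which give no version. Of 28204 probe sets, 21141 name 1 gene, 1881 several and 5182 none. For each of 18772 genes the single-gene probe set with the highest mean was used. Groups came from the labels, and arrays of 1 mouse and class were averaged. Array medians lay between 5.89 and 6.36.

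Differences were tested with limma 3.58.1 in R 4.3.3 (lmFit, eBayes, two-sided), with Benjamini-Hochberg adjustment over all genes and a threshold of 0.05. Mouse was a fixed block where every mouse had both classes and a random block otherwise. Genotype fits held batch (95 and 17 arrays), and the comparison of metastases held genotype. The same mouse number marks the same animal, which is the source of the pairing. The fits were also run on simulated data, with genes drawn independently and 200 of them changed by a log2 of 1. That setting is simpler than these data and does not bear on how far the calls depend on single mice.

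The 10 genes, the pathway lists and the markers were chosen with earlier results of these data known. The text names the 10 genes and, per pathway list, the 2 largest called rises and falls, or the largest change where none was called, and for each measured gene the 3 most correlated genes. Some genes of the pathway lists were not analysed here. Alternatives were the mean of probe sets, a filter on low values, trended and robust eBayes, repeated quantile normalization, individual arrays, other blocks, no batch or genotype term, both genotypes, batch 1 alone, leaving out single mice, RegCA carcinomas or arrays that stood apart, and lymph node metastases alone.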

Additional observations from a re-analysis of the deposited data

Results flagged for a closer look

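A pair of values stood far from the rest of their group by Dixon's criterion, both in the spindle carcinoma of mouse 1949. Tgfbi was 11.09 there, with the nearest mouse at 11.91 and the other 9 at 12.13 ± 0.13 (SD). Smad3 was 9.21 there, with the nearest mouse at 9.79 and the other 9 at 9.93 ± 0.13. The keratinocyte marker mean of that tumour was 11.12, above that of the other 9 spindle carcinoma mice, and over all genes its array was closest to squamous tumours. The criterion was applied to the classes of 4 to 10 mice (spindle and SCC carcinomas and spindle metastases), which gave 27 groups of gene and class. Skins, papillomas and SCC metastases, with more mice, were not examined, and among papillomas Smad3 of mouse 1815 was 10.32 with the nearest mouse at 8.90. Chance alone gives about 1 such value in 20 groups, or 1.35 in these 27 groups. The cause was not tested.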

How the results depend on the processing

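Over 126 comparisons of the 9 genes, 2439 alternative values were computed. Of these, 2404 kept the side of the threshold, 16 lost a call, 19 gained one and 0 changed the direction of a called difference. The count of the 9 genes called moved in 5 of the 14 comparisons. For papilloma over skin it was 4 on individual arrays, 4 without arrays that stood apart and 3 to 4 over single mice left out, against 3. For spindle carcinoma over papilloma it was 0 without RegCA carcinomas, 6 on individual arrays, 7 without arrays that stood apart and 4 to 6 over single mice left out, against 5. For spindle over SCC carcinoma it was 0 with mouse as a fixed block, 1 without RegCA carcinomas and with no block (a setting chosen after the data were seen), 3 with both genotypes and 0 to 2 over single mice left out, against 2. For SCC metastasis over carcinoma it was 5 on individual arrays, 0 with lymph node metastases alone (with fewer mice) and 1 to 3 over single mice left out, against 1. For HrasKO against WT SCC metastases it was 0 to 1 over single mice left out, against 0. The pairing comes from the mouse number in the labels. Leaving the mouse block out changed no call of the 9 genes, with 3 called in papilloma over skin, 5 in spindle carcinoma over papilloma and 1 in SCC metastasis over carcinoma.

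Counts over all genes were less stable. SCC carcinoma over papilloma called 38 genes, 170 on individual arrays, 65 after repeated quantile normalization, 0 in batch 1 alone, 377 without arrays that stood apart and 0 to 89 over single mice left out. Spindle carcinoma over papilloma called 4470, 2278 in batch 1, 7912 without such arrays, 0 without RegCA and 2105 to 5785 over single mice. Spindle over SCC carcinoma called 1419, 2140 on individual arrays, 0 with the fixed block, 657 in batch 1, 3679 without such arrays, 4297 with both genotypes and 1 to 3678 over single mice. SCC metastasis over carcinoma called 854, 2216 on individual arrays, 202 in batch 1, 459 without such arrays, 60 with lymph nodes alone and 202 to 892 over single mice. Spindle over SCC metastasis called 13, 1951 on individual arrays, 0 without the block, 372 with a filter on low values, 103 after quantile normalization, 611 without genotype, 2213 with lymph nodes alone and 0 to 470 over single mice. Lung over lymph node called 0, 331 on individual arrays, 28 without the block and 0 to 17 over single mice. Spindle metastasis over carcinoma called 0 and 68 on individual arrays, the metastatic change 0 and 19 without RegCA. HrasKO against WT called 29 in SCC metastases, 193 on individual arrays, 1 without arrays that stood apart and 0 to 306 over single mice, and 0 to 33 over single mice in papillomas.

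The correlation of the random block could not be estimated for spindle over SCC carcinoma without RegCA, nor for spindle over SCC metastasis and the metastatic change without arrays that stood apart. Fits with no block, chosen after the data were seen, replaced them, and the last 2 called 0 of the 9 genes. Causes were not tested. Arrays give no counting depth, and the number of mice limits the precision.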

Other observations

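The 3 mixed carcinomas, which enter no comparison, had Inhba levels of 11.32 in mouse 1616, 11.19 in mouse 1706 (both HrasKO) and 9.60 in mouse 1949 (WT). Their Smad3 levels were 10.51, 9.65 and 9.81 in the same order of mice. In the 1 mixed metastasis, of mouse 1508, Inhba was 9.28 and Smad3 9.55.

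In skin, mouse 2022 was the highest of 15 for 6 of the 9 genes, with Smad3 at 9.29. In spindle metastases, mouse 1509 was the lowest of 7 for 4 of the 9 genes, with Tgfb3 at 8.36 and Smad3 at 9.18.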
